A study of Mus musculus with 18 samples.

Results

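The genes examined were 9 neighbours of Il4i1 on mouse chromosome 7: Nup62, Tbc1d17, Akt1s1, Ptov1, Med25, Vrk3, Myh14, Nr1h2 and Pold1. They were listed by symbol for their position, to test whether deletion of Il4i1 went with local changes in expression. All 9 were among the 45777 genes of the count table, and all 9 were among the 18848 genes that passed the filter on low counts. Il4i1 itself, the deleted gene, and Il4i1b, a longer gene model over the same DNA, were used only to check the genotype.

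The samples were 18 libraries of colon RNA in 6 groups of 3, which the submitters call biological replicates. All mice were germ-free C57BL/6J males of 8 weeks, kept in isolators. Wild-type mice (WT) carried both oxidase genes, mice labelled LAO1KO were Lao1-/-, and mice labelled DKO were Lao1-/- Il4i1-/-. Lao1 was therefore deleted in LAO1KO and DKO alike, and Il4i1 only in DKO. No group with Il4i1 alone deleted was analysed here, so the Il4i1 deletion was compared on the Lao1-/- background, as DKO against LAO1KO. In each genotype 1 group drank plain sterile water and 1 group drank 2.5% dextran sulfate sodium (DSS), a polymer that injures the colonic epithelium, for 24 hours. Which bases of Il4i1 or Lao1 were removed, how the alleles were made, and how many founder animals the lines came from are not given in the sources used here.

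Il4i1 encodes a secreted L-amino acid oxidase made mainly by antigen-presenting cells. Its gene lies in a dense stretch of unrelated housekeeping genes, where ends of genes overlap and starts of genes stand back to back. In such a stretch 1 deletion can remove DNA that belongs to more than 1 gene, and reads from overlapping ends can be assigned to either gene.

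In RefSeq (GRCm38.p6), Il4i1 runs on the plus strand of chromosome 7 from 44836288 to 44840809. Tbc1d17 (44840776 to 44849079) is on the minus strand and points at it, so that the 3′ ends of both genes overlap by 34 bp. In the GENCODE M21 annotation of the same build the overlap is far larger, with 3423 of the 4080 exon bases of Il4i1 also covered by exons of a Tbc1d17 transcript. Akt1s1 (44849224 to 44855421, plus strand) begins 144 bp beyond the start of Tbc1d17 and faces away from it (89 exon bases are shared in GENCODE M21), and lies 8414 bp from Il4i1. Ptov1 (44863067 to 44870519, minus strand) and Med25 (44876765 to 44892705, minus strand) follow, at gaps of 22257 and 35955 bp. On the other side, Nup62 (44816088 to 44831836, plus strand) ends 4451 bp before Il4i1, although the longer model Il4i1b (44816370 to 44840804) starts inside Nup62 and overlaps its body by 15467 bp. Atf5 (44812256 to 44816658, minus strand) overlaps the start of Nup62 and lies 19629 bp from Il4i1. Vrk3 (44748629 to 44777515, plus strand), Myh14 (44605803 to 44670872, minus strand), Nr1h2 (44549616 to 44553968, minus strand) and Pold1 (44532744 to 44548815, minus strand) are farther away, at gaps of 58772, 165415, 282319 and 287472 bp.

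The DNA before the starts of Nup62 and of Il4i1 is printed because RNA over the Il4i1 exons is annotated from a start of its own and, as Il4i1b, from inside Nup62. Both runs are the 250 bases before the RefSeq start on the plus strand (GRCm38.p6), chr7:44815838-44816087 for Nup62 and chr7:44836038-44836287 for Il4i1, with CCAAT and GGGCGG, or their reverse complements, in capitals.
Nup62: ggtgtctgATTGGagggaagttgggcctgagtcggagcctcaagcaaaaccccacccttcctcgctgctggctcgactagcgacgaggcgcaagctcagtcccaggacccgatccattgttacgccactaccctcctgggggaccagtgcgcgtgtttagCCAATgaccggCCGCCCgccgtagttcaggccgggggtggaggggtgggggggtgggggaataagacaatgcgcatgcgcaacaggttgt
Il4i1: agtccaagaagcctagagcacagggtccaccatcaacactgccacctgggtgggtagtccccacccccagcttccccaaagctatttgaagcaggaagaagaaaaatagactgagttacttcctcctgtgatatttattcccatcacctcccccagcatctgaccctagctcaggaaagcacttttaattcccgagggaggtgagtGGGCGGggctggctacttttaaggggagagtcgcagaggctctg
The Nup62 run held 17 CpG dinucleotides and 63.2% G and C, with 2 matches to CCAAT and 1 to GGGCGG. The Il4i1 run held 3 CpG dinucleotides and 53.2% G and C, with 0 matches to CCAAT and 1 to GGGCGG. Over 32851 RefSeq promoter windows of the same length the median was 6 CpG dinucleotides and 52.4% G and C, 33.8% of windows held CCAAT on either strand and 32.7% held GGGCGG. The windows of the other 5 neighbours in the table (Akt1s1, Med25, Myh14, Nr1h2 and Pold1) held 13 to 23 CpG dinucleotides. Not all of these lie before the gene bodies given above. The windows of Akt1s1 (44850122 to 44850371) and Med25 (44892425 to 44892674) lie inside them, and those of Myh14 and Nr1h2 cross their edge. The remaining 3 neighbours (Tbc1d17, Ptov1 and Vrk3) had no window in the table.

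Library totals ran from 26003174 to 36553193 counts. Values below are CPM, counts scaled to a common library total with TMM factors, which align libraries on the bulk of their genes. The 9 markers of colonic epithelium summed to between 13850 and 29120 CPM in every library and 7 smooth muscle markers to between 2159 and 8553, so both layers of the colon were present in all 18. Of 55 markers of 9 cell types, 0 passed in edgeR between DKO and LAO1KO over both treatments (10 at an unadjusted p under 0.05, and 2 each in DESeq2 and limma voom) and 0 between DKO and WT (3 at an unadjusted p under 0.05, and 0 in the other two tools). Of all tested genes, 0.239% passed between DKO and LAO1KO in edgeR, 0.478% in DESeq2 and 1.87% in limma voom. The 5 adipocyte markers summed to 32.0 to 1011 CPM in LAO1KO, 21.9 to 199.5 CPM in DKO and 29.7 to 360.0 CPM in WT (median log2 fold change -2.875 for DKO against LAO1KO). The 5 red cell markers summed to 106.3 to 591 CPM in LAO1KO, 43.6 to 125.6 CPM in DKO and 41.4 to 410.0 CPM in WT (median -1.604). The part of both in the results was not tested. Since these are bulk samples, fewer cells of a type and less RNA per cell cannot be told apart.

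Counts of Il4i1 and Il4i1b were summed, because reads cannot be assigned between them. The sum was 1.59, 0.86 and 1.36 CPM in WT water and 1.61, 0.92 and 2.94 CPM in WT DSS. It was 1.14, 0.69 and 1.59 CPM in LAO1KO water and 1.85, 1.72 and 0.49 CPM in LAO1KO DSS. It was 0 in 5 of 6 DKO libraries, so that up to 3 counts in each cannot be told from none, and 0.36 CPM in DKO DSS replicate B. On average DKO differed from LAO1KO by -1.184 CPM and from WT by -1.486 CPM (exact 2-sided permutation tests within treatment, p = 0.005 for each, 0.0075 adjusted over 3 genotype pairs; 0.005 is the smallest p that the 400 arrangements can give). WT and LAO1KO differed by 0.301 CPM (exact permutation p = 0.47), less than the spread within either. The levels are low, with at most 66 counts in any library. The Lao1 label could not be checked in the same way, since Lao1 (chromosome 4, 118961967 to 118968910) was at or below 0.367 CPM in every library. Lao1 had 0, 0, 2, 0, 4 and 0 counts in WT (water A to C, then DSS A to C). It had 5, 5, 0, 9, 10 and 2 in LAO1KO, and 9, 0, 5, 6, 2 and 10 in DKO. The few reads were thus no fewer in the Lao1-/- genotypes, and their origin was not tested.

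Tbc1d17 was the neighbour that fell in DKO. It encodes a GTPase-activating protein for Rab GTPases that works with optineurin on the recycling of the transferrin receptor. Its level was 36.7, 23.9 and 30.6 CPM in WT water and 36.2, 37.5 and 36.9 CPM in WT DSS. It was 43.4, 23.6 and 24.7 CPM in LAO1KO water and 35.6, 26.2 and 20.4 CPM in LAO1KO DSS. It was 11.4, 15.6 and 17.5 CPM in DKO water and 15.5, 13.3 and 13.3 CPM in DKO DSS. All 6 DKO libraries lay below all 12 others, the nearest being DKO water replicate C at 17.5 CPM and LAO1KO DSS replicate C at 20.4 CPM.

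Averaged over treatments, Tbc1d17 stood at 14.4 ± 2.19 CPM in DKO, 29.0 ± 8.73 CPM in LAO1KO and 33.6 ± 5.39 CPM in WT (SD, n = 6 each). Its log2 fold change was -1.004 ± 0.17 (SE) for DKO against LAO1KO, adjusted p = 0.0104 in edgeR's quasi-likelihood test, and -1.21 ± 0.17 for DKO against WT, adjusted p = 0.000825. LAO1KO and WT, which both keep Il4i1, differed by -0.21 ± 0.17 (adjusted p = 0.996). DKO is an arm of both of the first comparisons, so they are not independent of each other. In raw counts Tbc1d17 had 333 to 553 in DKO, 498 to 1529 in LAO1KO and 627 to 1317 in WT.

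Split by drinking condition, Tbc1d17 was lower in DKO in all 4 contrasts. Against LAO1KO it was -1.04 ± 0.24 on the log2 scale in water and -0.97 ± 0.24 in DSS, and neither passed with 3 libraries a side (edgeR, adjusted p = 0.25 and 0.501). Against WT it was -1.03 ± 0.24 in water (adjusted p = 0.0588) and -1.39 ± 0.24 in DSS (adjusted p = 0.0115). The call in DSS did not outlast the loss of any 1 of its 6 libraries, with adjusted p from 0.0518 to 0.109. The test of whether the DSS response differed between genotypes gave 0.07 ± 0.33 for DKO against LAO1KO and -0.36 ± 0.33 for DKO against WT (adjusted p = 1 and 0.637). The calls over both treatments passed without any 1 library, and without DKO DSS replicate B, the DKO library with Il4i1b counts, the changes were -0.997 and -1.205 (adjusted p = 0.041 and 0.00476).

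Reads of Il4i1 that had been assigned to Tbc1d17 over the shared 3′ end would be missing in DKO. Such reads are not in the Il4i1 sum, so the drops below do not show how many there were. From LAO1KO to DKO the Il4i1 sum dropped by 1.185 CPM and Tbc1d17 by 14.53 CPM. From WT to DKO the drops were 1.486 and 19.18 CPM. The libraries were made with a stranded kit, but the strand setting of the counting is not given in the sources used here, so how reads over the shared exons were divided was not tested, and the value of Tbc1d17 is uncertain to that extent. Whether the deleted DNA includes part of Tbc1d17 was not tested either, since read positions were not used here.

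**Figure D1:**
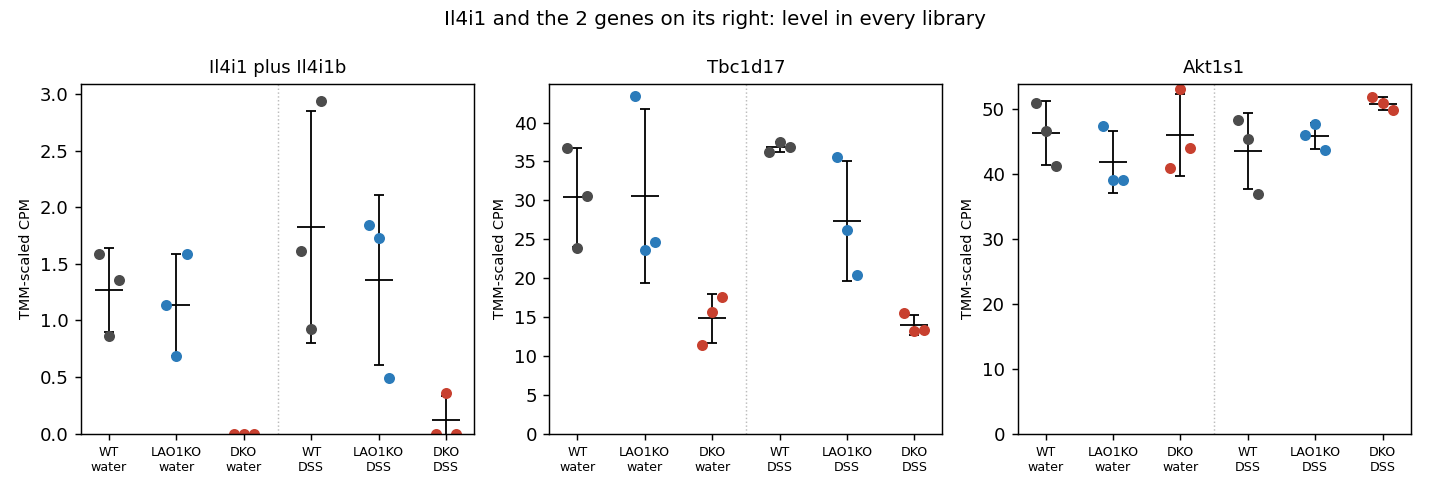
Level of Il4i1 plus Il4i1b, Tbc1d17 and Akt1s1 (TMM-scaled CPM, vertical axes from 0) in each library of the 6 groups (horizontal axis). Points are libraries and bars are mean ± SD of 3, cut at 0. For Tbc1d17 the 6 DKO libraries sit between 11.4 and 17.5 CPM, below the other 12 at 20.4 to 43.4 CPM, while the 3 genotypes overlap for Akt1s1 when both treatments are pooled.

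Counted over the 9 neighbours, 0 rose and 1 fell in DKO against LAO1KO over both treatments, where 0.117% of all tested genes rose, 0.122% fell and 0.239% passed in either direction. In DKO against WT, 0 rose and 1 fell, beside 0.308% of all tested genes that rose, 0.255% that fell and 0.562% that passed in either direction. In LAO1KO against WT none of the 9 passed in edgeR (0 with an unadjusted p under 0.05). DESeq2 also called 0 there, as did limma voom, with 0.133% of all tested genes passing in edgeR. The median log2 fold change of the 9 was -0.059 for DKO against LAO1KO and -0.162 for DKO against WT, beside 0.004 and -0.001 over all genes tested.

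Akt1s1 encodes PRAS40, an inhibitor of the growth kinase complex mTORC1 that is released when Akt phosphorylates it. Its start is the closest to that of Tbc1d17, and it did not fall with it. It stood at 43.9 ± 3.95 CPM in LAO1KO, 48.5 ± 4.83 CPM in DKO and 45.0 ± 5.07 CPM in WT (SD, n = 6 each), and the ranges of the 3 genotypes overlapped over both treatments. In DSS alone the DKO libraries, at 49.9 to 51.9 CPM, lay above those of LAO1KO (43.8 to 47.8 CPM) and WT (37.03 to 48.3 CPM), and neither difference passed (0.15 ± 0.13 and 0.22 ± 0.13 on the log2 scale, edgeR adjusted p = 1 and 0.565). Over both treatments the log2 fold change of Akt1s1 was 0.14 ± 0.09 for DKO against LAO1KO (95% interval -0.03 to 0.32, adjusted p = 0.711). Across the 18 libraries its log2 CPM and that of Tbc1d17 had a Pearson correlation of -0.204, a description over libraries that share depth and groups.

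Nup62 encodes a nucleoporin that lines the central channel of the nuclear pore. Il4i1b overlaps its body by 15467 bp, and in GENCODE M21 it shares 97 exon bases with Il4i1. The exon bases that Nup62 shares with Il4i1b were not counted. How far these overlaps make the value of Nup62 uncertain was not tested. Nup62 ran from 17.6 to 26.7 CPM in DKO, from 18.7 to 26.7 CPM in LAO1KO and from 18.5 to 39.2 CPM in WT. The change from LAO1KO to DKO was -0.08 ± 0.11 on the log2 scale (95% interval -0.30 to 0.14, adjusted p = 0.862). Against WT it was -0.27 ± 0.11 (adjusted p = 0.422), and WT water replicate B, at 39.2 CPM, was the highest library.

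Ptov1 and Med25 stand next to each other, and the protein of Ptov1 shares a domain with MED25, a Mediator subunit through which activators contact RNA polymerase II. Ptov1 ran from 38.8 to 66.7 CPM over all 18 libraries. It differed by -0.10 ± 0.12 (SE, log2) between DKO and LAO1KO (adjusted p = 0.823). Med25 ran from 42.4 to 72.3 CPM and differed by -0.03 ± 0.09 (adjusted p = 0.949). Neither gene's 95% interval reached a change of the size seen for Tbc1d17, being -0.33 to 0.12 for Ptov1 and -0.20 to 0.15 for Med25.

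Of the neighbours more than 50 kb to the left, none passed in edgeR between genotypes over both treatments. Vrk3 encodes a kinase-like protein that activates an ERK phosphatase, and it differed by -0.22 ± 0.09 between DKO and LAO1KO (unadjusted p = 0.0177, adjusted p = 0.637). Myh14, the heavy chain of non-muscle myosin IIC of epithelial cells, differed by -0.06 ± 0.15 (adjusted p = 0.93). Pold1, the catalytic subunit of DNA polymerase delta, differed by -0.04 ± 0.16 (adjusted p = 0.956) and was the least abundant of the 9 in CPM, between 8.82 and 23.8.

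Nr1h2 encodes LXR beta, a nuclear receptor for oxysterols that switches on cholesterol export. It leaned upward in DKO without passing. Nr1h2 stood at 85.1 ± 5.55 CPM in DKO, 74.0 ± 7.49 CPM in LAO1KO and 68.8 ± 8.92 CPM in WT (SD, n = 6 each), and DKO overlapped both. The log2 fold change was 0.31 ± 0.09 against WT (unadjusted p = 0.00289, adjusted p = 0.214) and 0.21 ± 0.09 against LAO1KO (adjusted p = 0.683). Pold1 begins 800 bp from the body of Nr1h2 and did not share this lean.

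**Figure D2:**
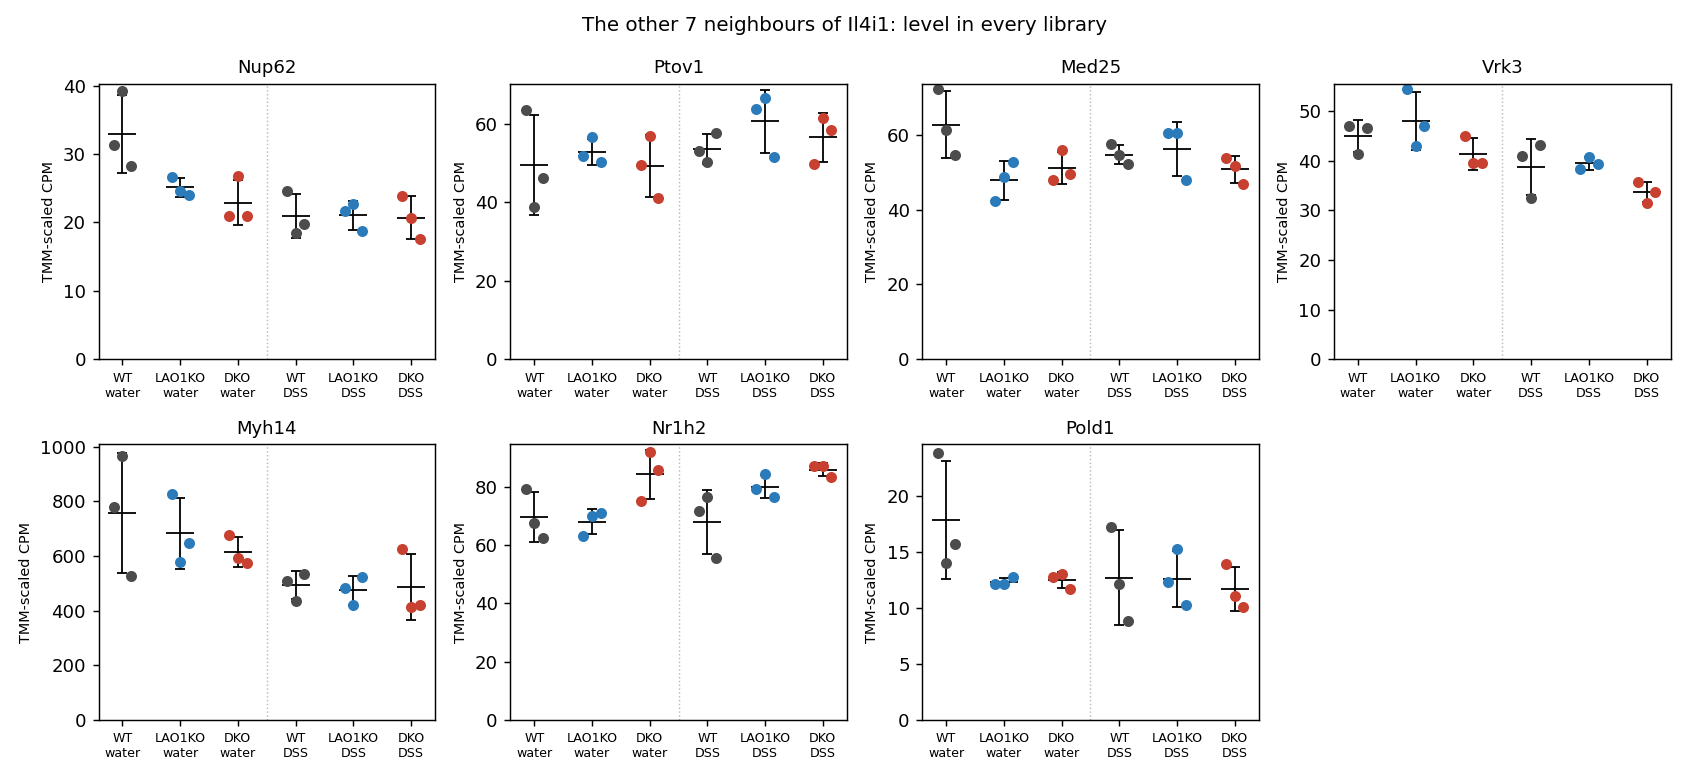
Level of the other 7 neighbours (TMM-scaled CPM, vertical axes from 0) in each library of the 6 groups (horizontal axis). Points are libraries and bars are mean ± SD of 3. The genotypes overlap for all 7 genes when both treatments are pooled, and the DSS libraries of Nup62, Vrk3 and Myh14 sit low.

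Within a drinking condition few neighbours passed in edgeR. The shares of all genes in this paragraph are those of edgeR, and those of DESeq2 and limma voom were not counted within a condition. In DKO against LAO1KO 0 of 9 passed in water and 0 in DSS, with 2 and 1 at an unadjusted p under 0.05, beside 0.0796% and 0.0637% of all tested genes that passed. DESeq2 passed 1 in water (Tbc1d17) and 0 in DSS, and limma voom passed 0 in water and 2 in DSS (Tbc1d17 and Med25, the latter at -0.285). In DKO against WT 0 of 9 passed in water, with 5 at an unadjusted p under 0.05, where 0.621% of all genes passed, DESeq2 passed 2 (Tbc1d17 and Nup62) and limma voom passed 1 (Tbc1d17). In DKO against WT in DSS 1 of 9 passed, Tbc1d17, beside 0.255% of all genes. In LAO1KO against WT 0 of 9 passed in water or DSS, with 3 and 0 at an unadjusted p under 0.05, beside 0.0531% and 0.0849% of all genes, and limma voom passed 1 in water (Pold1, -0.678) and 0 in DSS where DESeq2 passed 0 in either.

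In the wider neighbourhood the other changes lay more than 500 kb away in edgeR. The RefSeq genes within 1 Mb of Il4i1 that were tested numbered 101, the 9 included. Of these 3 (2.97%) passed in DKO against LAO1KO and 6 (5.94%) in DKO against WT, beside 0.239% and 0.562% of all tested genes. Of 12 tested genes with a gap of up to 100 kb, 1 passed in DKO against LAO1KO and 1 in DKO against WT, Tbc1d17 in both, and DESeq2 and limma voom also called 1 in each. Of 46 genes from 100 to 500 kb, 0 passed in edgeR in either comparison, with 4 and 7 at an unadjusted p under 0.05. DESeq2 called 0 and 2 of these 46, and limma voom 1 and 2. Of 43 genes from 500 kb to 1 Mb, 2 (4.65%) passed lower in DKO against LAO1KO, and 3 passed higher and 2 lower (11.6% together) in DKO against WT. DESeq2 called 3 and 8 of these 43 (6.98% and 18.6%), and limma voom 7 and 6 (16.3% and 14%). Over all tested genes DESeq2 called 0.478% and 1.1% in the same comparisons, and limma voom 1.87% and 1.45%. Atf5, a stress-response transcription factor next to Nup62, differed by -0.10 ± 0.17 between DKO and LAO1KO (adjusted p = 0.887).

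Of the 5 genes other than Tbc1d17 that passed in DKO against WT within 1 Mb, 2 fell and 3 rose. The 3 lncRNAs among them are gene models without a proper symbol and were named after their values were seen. The lncRNA 0610005C13Rik, 726985 bp to the right (45567795 to 45575176, minus strand), ran from 12.5 to 15.5 CPM in DKO, from 20.4 to 38.3 CPM in LAO1KO and from 21.2 to 64.2 CPM in WT, so that DKO lay below both. Its log2 fold change was -1.017 ± 0.14 for DKO against LAO1KO (adjusted p = 0.00128) and -1.345 ± 0.14 for DKO against WT (adjusted p = 2.9e-05), beside -1.004 and -1.21 for Tbc1d17. Gm31597, a lncRNA 901152 bp to the right, also passed as lower in both (adjusted p = 0.038 and 0.00613), at very low levels of at most 0.030 CPM in DKO and 0.079 to 0.736 CPM in the other 12 libraries. Gm39008, a lncRNA 818252 bp to the right, rose in DKO against WT (3.67 ± 0.53, adjusted p = 0.00211). It ran from 0.293 to 1.40 CPM in WT, from 8.31 to 11.03 CPM in DKO and from 0.085 to 7.64 CPM in LAO1KO. Gm39008 did not pass for DKO against LAO1KO (1.53 ± 0.47, adjusted p = 0.501) or for LAO1KO against WT (2.14 ± 0.52, adjusted p = 0.363). Ntn5, a member of the netrin family 843212 bp to the right (45684022 to 45694556), ran from 4.66 to 7.47 CPM in DKO, from 0.94 to 3.30 CPM in LAO1KO and from 0.12 to 1.29 CPM in WT, with no overlap between DKO and the others. Its log2 fold change was 2.995 ± 0.36 for DKO against WT (adjusted p = 0.000137) and 1.61 ± 0.33 for DKO against LAO1KO (adjusted p = 0.0546). For LAO1KO against WT, Ntn5 differed by 1.39 ± 0.35 (adjusted p = 0.383). Klk1b22, a kallikrein with near-identical copies and so an uncertain count, lies 719365 bp to the left (44112673 to 44116922). It was at most 0.118 CPM in WT, 0.057 to 15.7 CPM in LAO1KO and 11.03 to 22.9 CPM in DKO. Klk1b22 passed both for DKO against WT (adjusted p = 0.00159) and for LAO1KO against WT (adjusted p = 0.0371), where Il4i1 is present in both arms. For DKO against LAO1KO it did not pass (1.63 ± 0.67, adjusted p = 0.68).

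**Figure D3:**
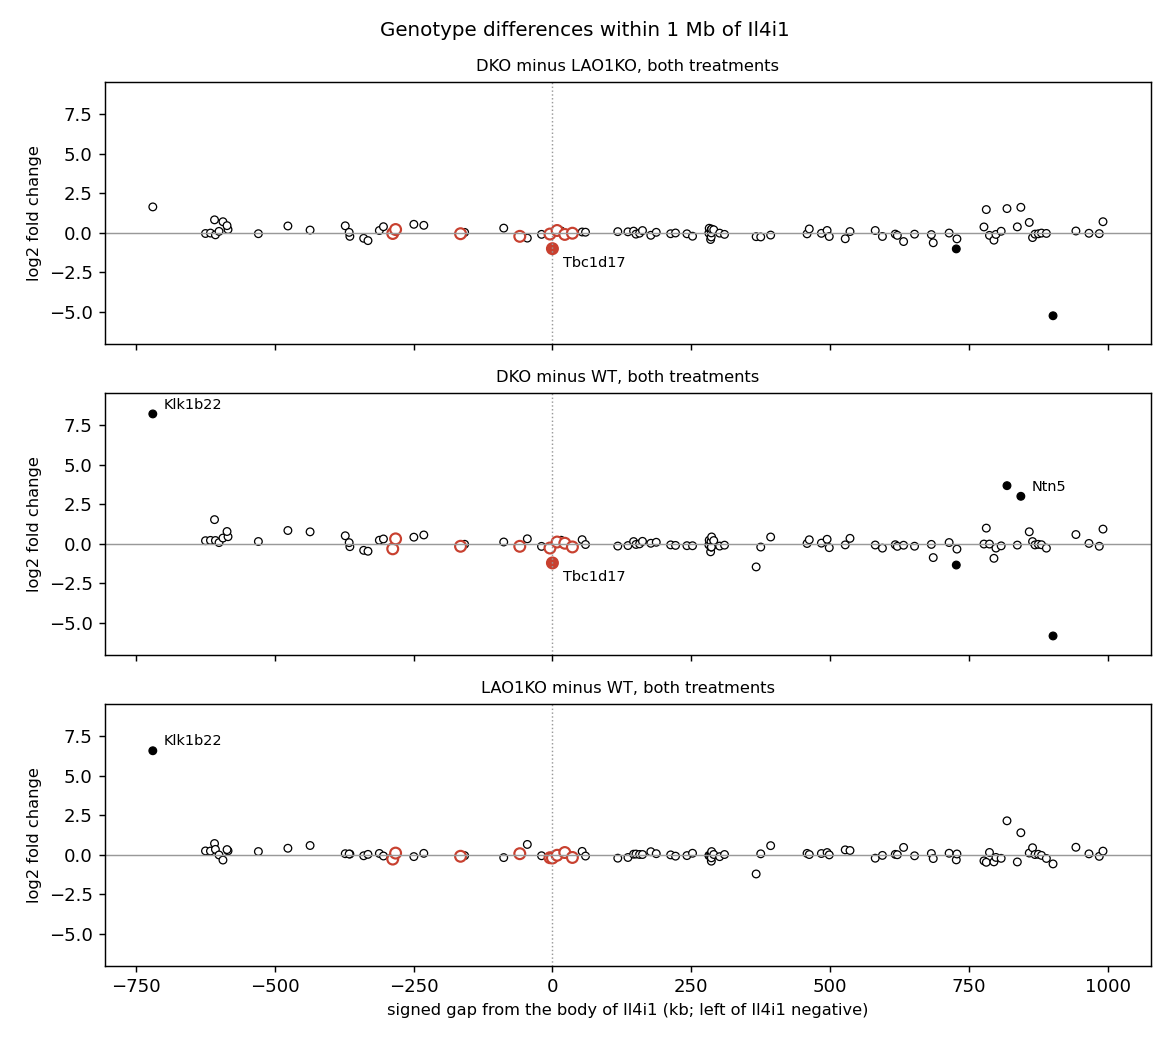
Log2 fold change (vertical axis) against the gap from the body of Il4i1 in kb (horizontal axis, left of Il4i1 negative) for the 101 tested genes within 1 Mb, in 3 genotype pairs over both treatments. Red points are the 9 neighbours, black points other genes, and filled points have an adjusted p under 0.05. Tbc1d17, at gap 0, is the only filled point within 500 kb in the top and middle panels, and no red point is filled in the bottom panel.

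DSS lowered 3 of the 9 neighbours when averaged over genotypes, and raised 0, beside 6.72% of all tested genes that rose, 9.18% that fell and 15.9% that passed in either direction. The 3 were Myh14, Nup62 and Vrk3, all on the left of Il4i1. The median log2 fold change of the 9 was 0.010, beside 0.031 over all genes.

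Myh14 was at 779, 967 and 527 CPM in WT water against 509, 436 and 533 CPM in WT DSS. It was at 829, 577 and 646 CPM in LAO1KO water against 481, 419 and 525 CPM in LAO1KO DSS. It was at 678, 591 and 575 CPM in DKO water against 627, 412 and 421 CPM in DKO DSS. The water and DSS libraries of Myh14 overlapped in WT and DKO and not in LAO1KO. Its averaged log2 fold change was -0.495 ± 0.12 (SE, adjusted p = 0.0125 in edgeR).

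Nup62 was at 31.4, 39.2 and 28.3 CPM in WT water against 24.6, 18.5 and 19.8 CPM in WT DSS. It was at 26.7, 24.7 and 24.1 CPM in LAO1KO water against 21.7, 22.8 and 18.7 CPM in LAO1KO DSS. It was at 20.96, 26.7 and 20.99 CPM in DKO water against 23.8, 20.7 and 17.6 CPM in DKO DSS. The groups did not overlap in WT and LAO1KO and overlapped in DKO. The averaged change of Nup62 was -0.35 ± 0.09 (adjusted p = 0.0153).

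Vrk3 was at 47.0, 41.3 and 46.6 CPM in WT water against 40.9, 32.4 and 43.2 CPM in WT DSS. It was at 54.5, 43.0 and 47.0 CPM in LAO1KO water against 38.3, 40.9 and 39.5 CPM in LAO1KO DSS. It was at 45.1, 39.5 and 39.6 CPM in DKO water against 35.7, 31.6 and 33.8 CPM in DKO DSS. The groups overlapped in WT and not in LAO1KO or DKO. The averaged change of Vrk3 was -0.265 ± 0.07 (adjusted p = 0.0175).

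Leaving out any 1 of the 18 libraries kept all 3 calls. Mitochondrially encoded mRNA made up 6.89 to 20.7% of counts in water and 14.3 to 44.9% in DSS. All 13 of these mRNAs rose, and with them removed before scaling Myh14, Nup62 and Vrk3 changed by -0.487, -0.345 and -0.258. Of 9 epithelial markers 2 fell (median -0.287), with sums of 17280 to 29120 CPM in water and 13850 to 21880 CPM in DSS, and of 6 enteric neuron and glia markers 6 rose (median 0.747), with sums of 59.8 to 137.4 CPM in water and 107.1 to 228.3 CPM in DSS. No epithelial marker was at 0 in any library. The part of these markers in the fall of the 3 genes was not tested.

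The shares of all genes in this paragraph are those of edgeR. Those of DESeq2 and limma voom were not counted by genotype or for differences between genotypes. For DSS averaged over genotypes limma voom called 32.8% of all genes, where edgeR called 15.9%. Taken by genotype, Nup62 was the 1 neighbour of 9 that passed in edgeR for DSS in WT, at -0.65 ± 0.16 (adjusted p = 0.0139), beside 12.9% of all genes. DESeq2 and limma voom each called 2 there, Nup62 and Myh14 (Myh14 at -0.646 and -0.565, adjusted p = 0.0168 and 0.0256). In edgeR 0 of 9 passed in WT without WT water replicate B or without WT DSS replicate C. It called 2 without WT water replicate C (Nup62 and Myh14) or without WT DSS replicate A (Nup62 and Pold1). In LAO1KO 0 of 9 passed in edgeR, with 2 at an unadjusted p under 0.05, beside 0.196% of all genes in edgeR. DESeq2 called 0 there and limma voom called 4. The 4 were Myh14 and Vrk3, which fell, and Akt1s1 and Tbc1d17, which were higher, although Tbc1d17 had a change of -0.16 in edgeR and 0.417 in limma voom. In DKO 0 of 9 passed in edgeR, with 1 at an unadjusted p under 0.05, while DESeq2 and limma voom called 0, beside 0.0159% of all genes. No test of a difference between the DSS responses of 2 genotypes passed for a neighbour in edgeR (0 of 9 for each pair, with 0, 1 and 1 at an unadjusted p under 0.05 for DKO against LAO1KO, DKO against WT and LAO1KO against WT). Of all genes 0%, 0.0584% and 0% passed these tests, and of the neighbours DESeq2 called 0 and limma voom 1, Med25. The smallest p-values in edgeR were those of Med25 for LAO1KO against WT (0.43 ± 0.18, adjusted p = 0.256 in edgeR and 0.0473 in limma voom) and Nup62 for DKO against WT (0.51 ± 0.22, edgeR adjusted p = 0.285).

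The other 6 neighbours did not pass for DSS on average. Ptov1 changed by 0.17 ± 0.09 on the log2 scale (adjusted p = 0.219) and Pold1 by -0.18 ± 0.13 (adjusted p = 0.358). Nr1h2 had 0.07, Akt1s1 0.06, Tbc1d17 0.01 and Med25 0.01. For Tbc1d17, the gene that differed between genotypes, the 95% interval of the DSS change was -0.26 to 0.28.

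**Figure D4:**
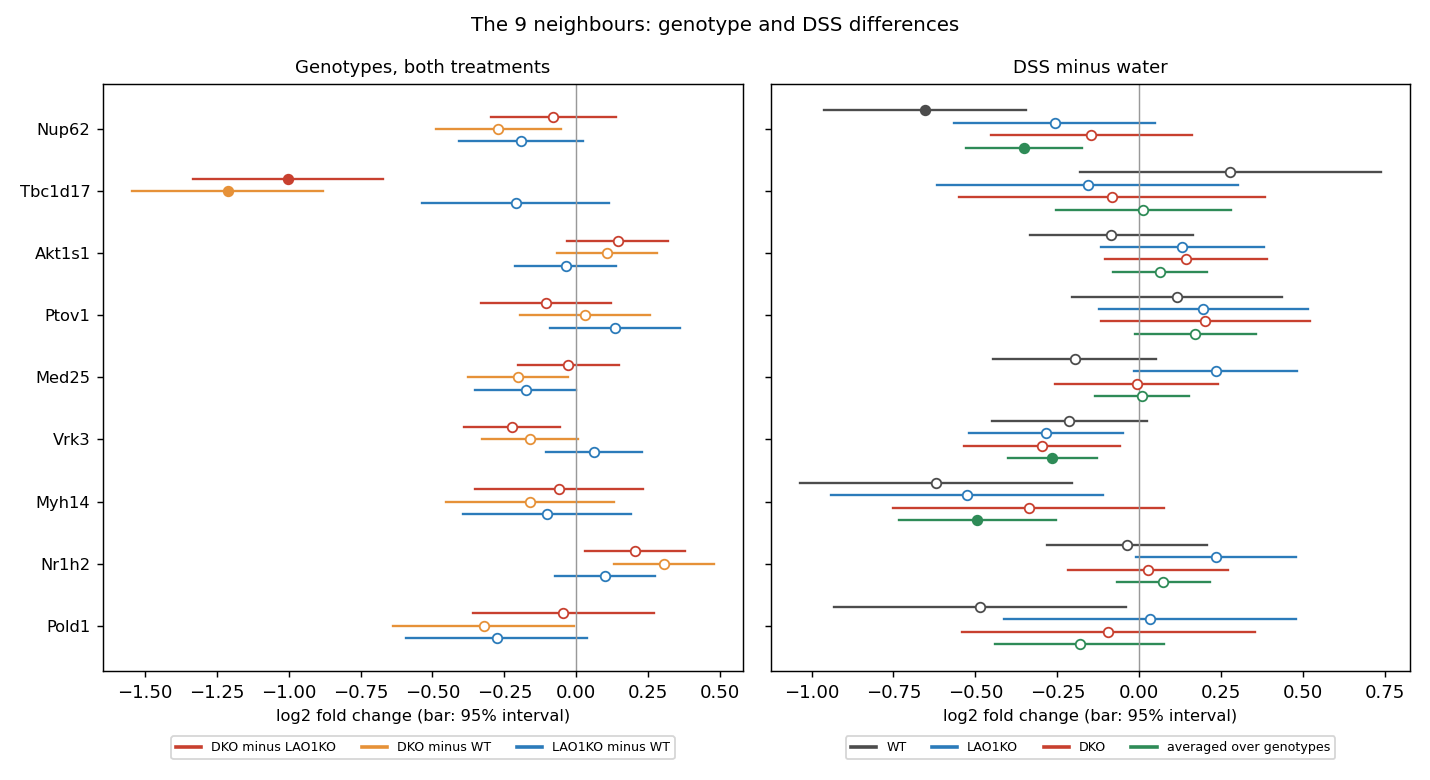
Log2 fold changes of the 9 neighbours (horizontal axes) with 95% intervals, for 3 genotype pairs over both treatments (left) and for DSS against water in each genotype and on average (right). Filled points have an adjusted p under 0.05 in edgeR. On the left only Tbc1d17 has filled points, at -1.004 and -1.21, and on the right Nup62, Vrk3 and Myh14 have them.

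Genes that work with the neighbours were counted in 8 lists of 105 tested genes in all, such as mTORC1 for Akt1s1 and Mediator for Med25 and Ptov1. Between DKO and LAO1KO 0 of the 105 passed in edgeR, DESeq2 or limma voom, with 6 (5.71%) at an unadjusted p under 0.05 in edgeR, beside 7.21% of all tested genes. Between DKO and WT 0 passed in any of the 3 tools, with 8 (7.62%) at an unadjusted p under 0.05, beside 10.8% of all tested genes. Since 0.239% and 0.562% of all genes passed in edgeR, a count of 0 in 105 is near that background and says nothing particular about these genes. The list for Tbc1d17 holds Rab GTPases, related TBC proteins, optineurin (Optn) and the transferrin receptor (Tfrc), and its 8 genes had log2 fold changes of -0.19 to 0.18 between DKO and LAO1KO, with a median of -0.026 beside 0.004 over all genes. The 17 LXR targets and partners had a median of -0.083, with 0 passing.

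Under DSS, averaged over genotypes, 16 of the 105 (15.2%) passed in edgeR, near the 15.9% of all tested genes. DESeq2 called 23 (21.9%, beside 21.1% of all) and limma voom 42 (40.0%, beside 32.8%). The edgeR calls are given by list as a description. In the mTORC1 list 4 of 14 fell and 0 rose. They were the scaffold Rptor (-0.52), the inhibitor Deptor (-0.36), the subunit Mlst8 (-0.31) and the translation repressor Eif4ebp2 (-0.19). Among 14 replication genes the sliding clamp Pcna (-0.36) and the flap nuclease Fen1 (-0.38) fell. Of 17 LXR genes 2 rose, the cholesterol exporter Abcg1 (0.44) and the lipid carrier Apoe (0.32), and the 2 receptor partners Rxra (-0.27) and Rxrb (-0.32) fell. Of 8 Rab and TBC genes Rab21 (-0.36) and Rab8a (-0.305) fell. Of 27 Mediator genes 2 fell, Med22 (-0.32) and Med13 (-0.30), while Nup98 (-0.19) among 11 nuclear pore genes and Rock2 (-0.30) among 10 non-muscle myosin genes were the only ones to pass in their lists, and 0 of 4 in the list for Vrk3 passed.

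The 9 neighbours did not move as a block across libraries. Over their 36 pairs the Pearson correlation of log2 CPM across the 18 libraries ran from -0.596 (Vrk3 with Nr1h2) to 0.754 (Nup62 with Myh14), with a median of 0.2. Of pairs that sit side by side, Tbc1d17 and Akt1s1 had -0.204, Ptov1 and Med25 0.229, and Nr1h2 and Pold1 0.135. Nup62 and Tbc1d17, which stand on either side of Il4i1, had 0.266. Among 11002 genes with a mean of at least 5 CPM, the most alike was Cttn for Myh14 (0.958), Trmt61a for Nup62 (0.928), Dus3l for Nr1h2 (0.909), Gstt3 for Vrk3 (0.889) and Cerk for Med25 (0.866). It was Zfp772 for Tbc1d17 (0.857), Grn for Ptov1 (0.855), Topbp1 for Pold1 (0.848) and Mtg2 for Akt1s1 (0.819). These correlations describe libraries that share depth, treatment and genotype.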

How the data were processed

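RNA of 18 mouse colons was sequenced as stranded mRNA libraries with paired reads of 150 bases, per the labels' protocols. The deposited table holds whole-number counts per gene for the 18 libraries, and the authors' steps named in the submitters' processing notes are FastQC 0.11.7, Trimmomatic 0.38, HISAT2 2.1.0 and StringTie 2.1.3b on GRCm38 (mm10), with R 4.3.2 and DESeq2 1.42.1. How strand, multiply mapped reads and overlapping genes were counted is not given in the sources used here.

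Counts were tested with edgeR 4.0.16 in R 4.3.3 (limma 3.58.1), by quasi-likelihood with robust fitting, TMM scaling, the filterByExpr filter and 1 mean per group over all 18 libraries. Benjamini-Hochberg adjustment covered all 18848 genes tested, with a threshold of 0.05, and 95% intervals are 1.96 SE either side. P-values measure the spread between the libraries of a group, and 3 a group limit the precision. The procedure was also run on counts simulated from its own model, with the spread fitted to these data. The outcome is not given here, and such counts cannot show whether that model holds. The simulation held no shift in library composition and does not cover one. Alternatives were relative log expression scaling, no filter, mitochondrial genes removed before scaling, only the groups compared, DESeq2 1.42.0, limma voom with library weights, the replicate letter as a block, and each library left out in turn. The members, lists and tests were chosen with earlier results of these data known. All 9 members were named, with the 2 nearest genes on each side (1 of them is not reported here), genes within 1 Mb that passed and had a proper symbol, up to 4 passing genes of each partner list by smallest p, and the most alike gene of each member by log2 CPM (prior count 2). Gene positions and promoter sequences are from RefSeq GRCm38.p6, and exon overlaps from GENCODE M21. Libraries of different groups that share a letter were not treated as paired in the main fit. Same-letter deviations from the group means had a median correlation of 0.027 over 45 pairs, beside -0.024 over 90 different-letter pairs. Of the 45, 13 were over 0.1 (highest 0.319), so these values do not settle whether the letters pair animals.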

Additional observations from a re-analysis of the deposited data

How the results depend on the processing

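The fall of Tbc1d17 over both treatments passed under all 19 alternatives in both comparisons, at -1.105 to -0.849 (adjusted p 1.72e-05 to 0.0435) for DKO against LAO1KO and -1.303 to -1.134 (adjusted p 6.96e-09 to 0.00496) for DKO against WT, and the number of the 9 neighbours passing stayed at 1 in both. The 3 falls under DSS on average passed under all 24 alternatives. Other counts of neighbours moved with the test, and where nothing else is said the cause was not tested.

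For DSS in WT the count of 1 became 2 with no filter, with mitochondrial genes removed, with the replicate block, with DESeq2 and with limma voom, and 0 to 2 when 1 library was left out. For DKO against WT in water the count of 0 became 1 with the replicate block (Tbc1d17 at -0.993, adjusted p = 0.048), 2 with DESeq2 and 1 with limma voom. For DKO against WT in DSS the count of 1 became 0 in each of the 6 fits with 1 library left out, which hold fewer samples. For DKO against LAO1KO the count of 0 became 1 in water with DESeq2 and 2 in DSS with limma voom. Limma voom also raised counts of 0 to 1 for LAO1KO against WT in water, to 1 for the difference in DSS response of LAO1KO and WT, and to 4 for DSS in LAO1KO. The replicate block changed no other call on a neighbour, and its letters are not shown to pair animals. Of 18 libraries, 10 correlated best with their own letter.

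Counts over all genes were larger with other tools. DESeq2 gave 91 and limma voom 352 for DKO against LAO1KO (45 in edgeR, 32 to 54 with 1 library left out), 210 and 274 for DKO against WT (106, 74 to 105), and 48 and 100 for LAO1KO against WT (25, 17 to 30). Limma voom gave 6179 for DSS on average (2996, and 1928 to 3551 with 1 library left out, the lowest without DKO DSS replicate B). Within 1 Mb limma voom gave 9 for DKO against LAO1KO (3, 2 to 4) and DESeq2 gave 11 for DKO against WT (6, 6 to 7).

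Changes near 0 that never passed switched sign. Med25 under DSS on average became -3.43e-04 with DESeq2, -0.033 with limma voom and -0.034 to 0.051 with 1 library left out. Ptov1 for DKO against WT became -0.023 with limma voom and -0.061 to 0.129 with 1 library left out. With 1 library left out Tbc1d17 under DSS on average ran from -0.067 to 0.109. For DKO against LAO1KO the ranges were -0.097 to 0.0092 for Med25, -0.127 to 0.025 for Pold1 and -0.171 to 0.0046 for Myh14. For LAO1KO against WT they were -0.198 to 0.0026 for Myh14 and -0.081 to 0.0040 for Akt1s1. Depth limits Il4i1, at most 66 counts, far more than the 9 neighbours.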
